A study of Rattus norvegicus with 12 samples.

Results

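Liver RNA was examined for 10 genes of triglyceride assembly, breakdown and storage in lipid droplets (Gpam, Dgat1, Dgat2, Pnpla2, Pnpla3, Pnpla5, G0s2, Plin2, Cidec and Cideb). The genes were chosen by their roles and with their measured differences between the diets already known, so those differences are given as a description without a test. Probes were assigned through the RefSeq accession carried by each array probe; 9 of the 10 genes had at least 1 probe, 13 probes in all, and all 9 passed the filter on dim probes, out of 21874 genes tested on the array. No probe of Cideb was matched.

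The animals were adult male Wistar rats kept for 4 weeks on 1 of 2 diets of equal energy content. The control diet held 14% casein and was fed to 6 rats, and the low protein diet held 5% casein and was fed to another 6. Casein is the main milk protein, and the labels give no gene manipulation or drug. Total RNA from the liver of each rat was labelled with the dye Cy3 and hybridised to 1 single-colour Agilent array. The labels number the rats 1 to 6 within each diet, do not state that equal numbers link rats of both diets, and do not say whether the animals shared a cage.

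Triglyceride is built on glycerol-3-phosphate by stepwise addition of fatty acyl chains, and the last chain is added by the diacylglycerol acyltransferases. The product is either secreted in very low density lipoprotein or packed into cytosolic droplets, whose surface proteins (perilipins, CIDE proteins and patatin-like phospholipase domain proteins) set droplet size and the access of lipases. In liver, several of these genes are known targets of the insulin- and sterol-responsive factor SREBP-1c, and droplet accumulation is the hallmark of fatty liver.

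The 75th percentile of the processed signal, which sets the zero of the log2 levels given here, lay between 942 and 1317 intensity units per array, and 61.2% to 69.9% of spots were well above background. All 13 probes were well above background on all 12 arrays. Arrays lay on 2 slides, each scanned at its own time: slide 1 carried control rats 1, 3, 5 and 6 with low protein rats 1 to 4, and slide 2 the other 4 rats. Differences within each slide therefore stand beside the pooled value. Of hepatocyte markers, 10 of 10 were measured, with a summed level of 1100 to 1269 in control and 913 to 1206 in low protein livers (in multiples of the 75th percentile). Whole liver was sampled, so fewer cells of a type and less RNA per cell cannot be told apart.

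The largest differences among the 9 genes were those of Pnpla3 and Pnpla5, both lower on the low protein diet, and Cidec was higher. These 3 were also the genes whose diets did not overlap. Their adjusted p was under 0.05 in the limma fit over all genes, 1 higher and 2 lower, where 6.53% of all genes tested passed this threshold (3.48% higher, 3.05% lower). Diets that did not overlap were seen for 4.98% of all genes (3.00% higher and 1.98% lower). Nothing is read from these counts, because the genes were chosen with this contrast known. Of the 9 genes, 6 had a difference above 0, with a median of 0.10 against -0.03 over all genes (log2, low protein minus control).

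**Figure D1:**
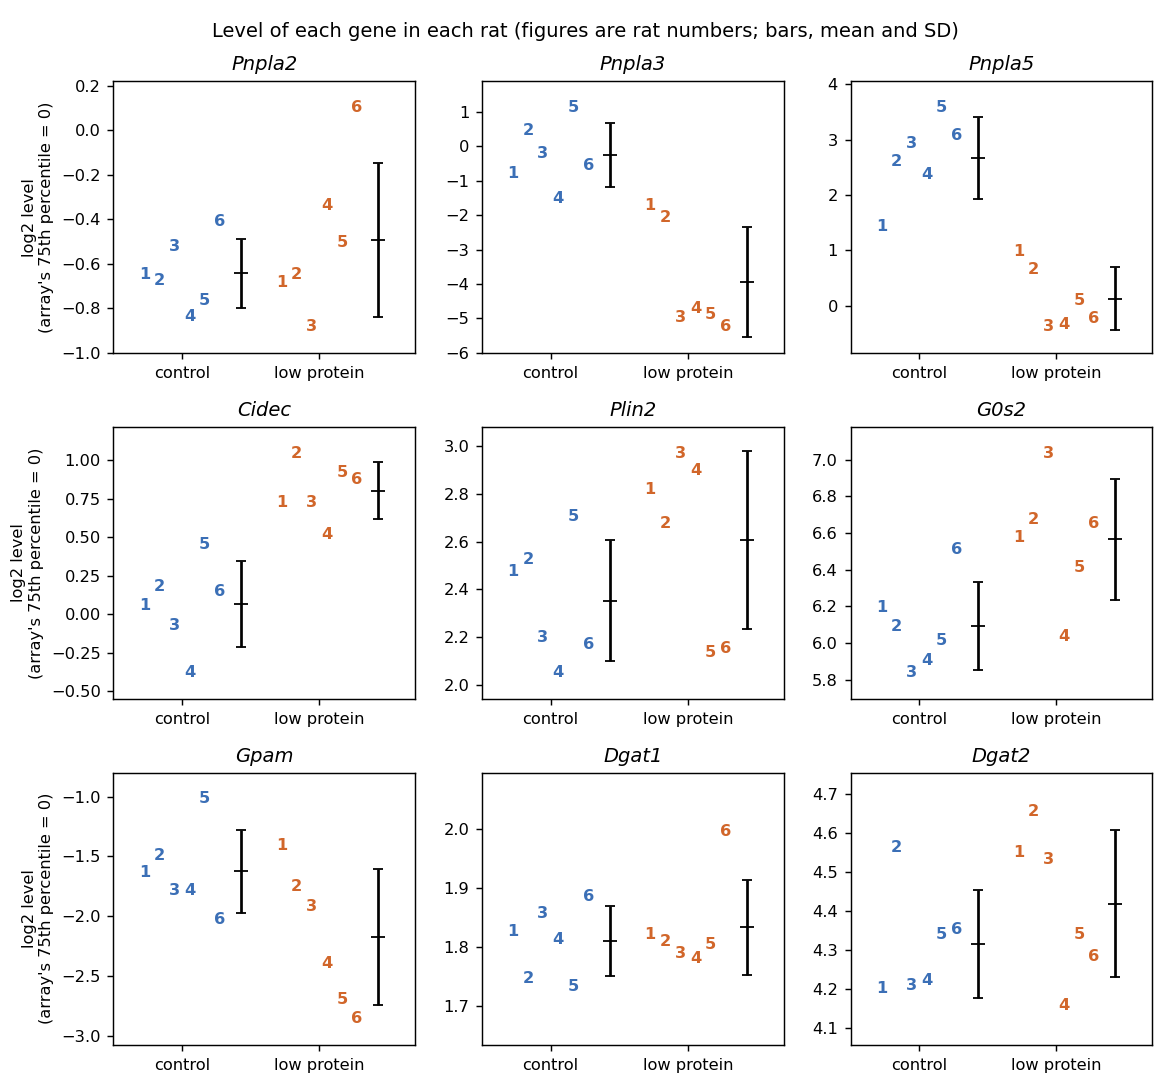
Log2 level of the tested probe of each of the 9 measured genes (y axis, 0 is the array's 75th percentile) in each rat (numerals are rat numbers), with the mean and SD of 6 rats per diet beside them. The low protein rats lie below all control rats for Pnpla3 and Pnpla5 and above them for Cidec; in the other 6 panels the diets overlap. The y axes differ between panels.

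Pnpla3 and Pnpla5 are shown first by their promoters because these 2 genes are adjacent in the RefSeq gene order and both were lower. They lie on opposite strands of rat chromosome 7 and are transcribed away from each other, with both promoters between them. Cidec is shown as the gene with the opposite difference. Each line gives the 250 bases before the start site (RefSeq, GRCr8), 5′ to 3′ on the strand of the gene, and capitals mark the motif matches described next.

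Pnpla3 (chr7:117173278-117173527, plus strand): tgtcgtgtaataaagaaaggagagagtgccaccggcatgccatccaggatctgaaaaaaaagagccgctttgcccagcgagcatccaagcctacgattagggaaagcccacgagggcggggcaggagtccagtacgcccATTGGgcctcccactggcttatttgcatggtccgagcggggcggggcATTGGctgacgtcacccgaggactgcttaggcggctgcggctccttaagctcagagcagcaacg

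Pnpla5 (chr7:117137037-117137286, minus strand): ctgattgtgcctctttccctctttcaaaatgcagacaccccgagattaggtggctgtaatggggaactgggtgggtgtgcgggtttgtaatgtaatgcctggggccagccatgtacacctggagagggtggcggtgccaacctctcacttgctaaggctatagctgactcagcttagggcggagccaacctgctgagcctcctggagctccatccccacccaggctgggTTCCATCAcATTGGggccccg

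Cidec (chr4:148137116-148137365, minus strand): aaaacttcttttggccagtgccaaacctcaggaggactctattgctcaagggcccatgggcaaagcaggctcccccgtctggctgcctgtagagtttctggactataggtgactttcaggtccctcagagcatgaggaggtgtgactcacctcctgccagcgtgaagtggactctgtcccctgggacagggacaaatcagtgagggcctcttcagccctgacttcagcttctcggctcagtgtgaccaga

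Motifs were searched on both strands in windows of 300 bases that reach 50 bases past the start site, over 33469 RefSeq windows, of which 9 belonged to these genes (8 genes; none for Dgat1 or Dgat2, and a pair for Plin2). The CCAAT box, searched as CCAAT, was found on the reverse strand (as ATTGG) at -111 and -64 from the start of Pnpla3 and at -12 of Pnpla5; the first base of the match is counted. It stood in 4 of the 9 windows and in 37.5% of all windows. The C/EBP-ATF response element, searched as TGATGNAA, was found at -21 of Pnpla5 on the reverse strand and at -122 of Gpam, in 2 of 9 windows against 3.98% of all. The E-box CACGTG stood in 1 of the 9, a window of Plin2, against 6.42% of all. The sterol regulatory element (TCACNCCAC, 1.12% of all windows), the direct repeat of the PPAR response element (0.0538%) and the TATA box TATAAA (14.2%) were in 0 of the 9. Cidec held no match to any of the 6 motifs. A match describes the letters only, and binding was not measured.

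Among the enzymes of assembly, no gene separated the diets. Gpam, the mitochondrial acyltransferase that attaches the first acyl chain to glycerol-3-phosphate, had log2 levels from -2.03 to -1.02 in control livers (median -1.71). In low protein livers it spanned -2.86 to -1.41 (median -2.16). The ranges overlapped, and low protein rats 4, 5 and 6 lay below every control rat. The difference was -0.55 ± 0.25 (SE, 6 rats per diet), -0.25 on slide 1 and -1.14 on slide 2. Its other probes gave -0.58 ± 0.31 and -0.50 ± 0.33, and the 3 probes followed each other over the 12 rats (Pearson r 0.85 to 0.96). Without low protein rats 1 and 2, left out after their Pnpla3 levels were seen, the difference was -0.84 ± 0.22.

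Dgat1 and Dgat2 encode unrelated proteins that both catalyse the last step, in which diacylglycerol becomes triglyceride. Dgat1 spanned 1.73 to 1.89 in control livers (median 1.82) and 1.78 to 1.996 in low protein livers (median 1.81). It had the narrowest spread of the 9 genes, with a difference of 0.02 ± 0.06, and its other probe gave -0.03 ± 0.06. Those probes did not follow each other over the rats (r = 0.11), so the small variation of Dgat1 between rats was not shared by its probes. Dgat2 spanned 4.20 to 4.56 in control livers (median 4.28) and 4.16 to 4.66 in low protein livers (median 4.44), a difference of 0.10 ± 0.10. Its difference was 0.20 on slide 1 and -0.08 on slide 2.

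Among the patatin-like proteins, Pnpla3, a droplet-bound protein with lipase and acyltransferase activity in vitro and a known SREBP-1c target, had the largest difference. Its level ranged from -1.51 to 1.14 in control livers (median -0.38) and from -5.25 to -1.72 in low protein livers (median -4.80). The diets did not overlap, and the highest low protein rat lay just below the lowest control rat. In processed intensity it was 457 to 2429 in control and 34.5 to 286 in low protein livers. The difference was -3.69 ± 0.68, or 12.9-fold lower, with -3.27 on slide 1 and -4.54 on slide 2.

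The low protein rats were split for Pnpla3. Rats 1 and 2 were at -1.72 and -2.08, and rats 3 to 6 between -5.25 and -4.72. Levels spanned 11.6-fold among low protein livers and 6.28-fold among control livers, where rat 5 was highest and rat 4 lowest. Rats 1 to 4 of the low protein diet shared slide 1, so this gap also lay within a slide. A second Pnpla3 probe gave -4.02 ± 0.75 (16.2-fold lower) and followed the first over the 12 rats with r = 0.999. Without low protein rats 1 and 2 the difference of the tested probe was -4.71 ± 0.43. That larger difference was fixed in advance, because the rats left out had the highest levels of their diet. With normexp background correction and all 12 rats the difference was -2.80 ± 0.46.

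Pnpla5, a less studied member of the same family with lipase activity, spanned 1.42 to 3.58 in control livers (median 2.76). In low protein livers it spanned -0.39 to 0.97 (median -0.07). The diets did not overlap: control rat 1 was the lowest control and low protein rats 1 and 2, at 0.97 and 0.66, were again the highest of their diet. The difference was -2.53 ± 0.34 (5.80-fold lower), and slides 1 and 2 gave -2.53 and -2.55.

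Pnpla2 encodes adipose triglyceride lipase, which removes the first fatty acid of stored triglyceride, and G0s2 encodes its inhibitor. Pnpla2 spanned -0.84 to -0.41 in control livers (median -0.66) and -0.88 to 0.10 in low protein livers (median -0.58). Its difference was 0.15 ± 0.15, with -0.05 on slide 1 and 0.56 on slide 2, and it came to 0.03 without low protein rat 6, the rat at 0.10. G0s2 spanned 5.84 to 6.51 in control livers (median 6.05) and 6.04 to 7.03 in low protein livers (median 6.62). The diets overlapped: low protein rat 4 lay below control rats 1, 2 and 6, and low protein rat 5 below control rat 6. The other low protein rats lay above every control rat. The difference of G0s2 was 0.47 ± 0.16, with 0.44 on slide 1 and 0.53 on slide 2.

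Among droplet surface proteins, Cidec, which joins droplets and lets lipid pass from smaller to larger ones, spanned -0.38 to 0.45 in control livers (median 0.10). In low protein livers it spanned 0.52 to 1.05 (median 0.80). The diets did not overlap, but control rat 5 and low protein rat 4 lay close together, and with normexp background correction the ranges overlapped (-0.28 to 0.53 and 0.50 to 1.08). The difference was 0.74 ± 0.13, or 1.67-fold higher, with 0.61 on slide 1 and 1.00 on slide 2. Plin2, the perilipin that coats droplets in most cells, spanned 2.05 to 2.70 in control livers (median 2.34) and 2.13 to 2.97 in low protein livers (median 2.75). Low protein rats 1 to 4 had 2.68 to 2.97, and rats 5 and 6 had 2.13 and 2.15. Its difference was 0.25 ± 0.17, and it changed sign between the slides (0.45 on slide 1, -0.15 on slide 2), where the low pair of rats lay on slide 2.

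**Figure D2:**
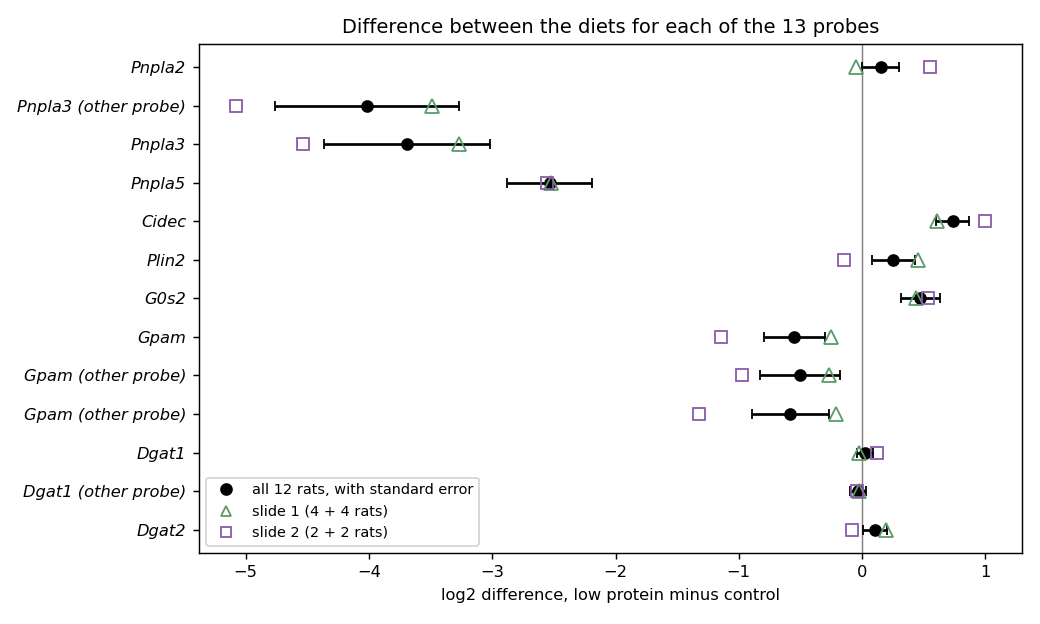
Log2 difference, low protein minus control (x axis), for each of the 13 probes (y axis), over all 12 rats (filled circle, bar is the SE of the fit) and within each slide (triangle, 4 rats per diet; square, 2 rats per diet). Both Pnpla3 probes lie between -5.08 and -3.27 in all 3 estimates, while the tested probes of Plin2, Dgat1, Dgat2 and Pnpla2 lie on both sides of 0.

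Cidec, Cidea and Plin4 are also expressed by adipocytes, so markers of fat tissue were examined. Of 9 adipocyte markers, 4 passed the filter, and their summed level was 1.80 to 3.59 in control and 2.04 to 2.97 in low protein livers. This sum mostly reflects Cfd, which had the highest level (control mean 1.33 on the log2 scale, against -2.95 for Cidea, the next). Adipoq, Lep and Plin1 were well above background on 0 of 12 arrays, Retn on 1 and Lipe on 6. Of the 4 measured markers, 0 passed the limma test at an adjusted p under 0.05, and the median difference was 0.82. Cidea, a relative of Cidec, differed by 1.13 ± 0.50 (limma adjusted p = 0.206, and 0.0482 without control rat 1), Plin4 by 1.11 ± 0.71 and Fabp4 by 0.53 ± 0.42. The median of 0.82 lies between Plin4 and Fabp4, whose probes were dim (control means -6.95 and -6.51), so nothing is read from it. Cfd differed the other way, by -0.34 ± 0.15. It and Cidea were the 2 with an unadjusted limma p under 0.05, which 4722 of all 21874 genes had. Stellate cell markers, from the vitamin A storing cells that hold their own droplets, had summed levels of 3.25 to 4.10 and 3.03 to 4.06. Of these 8 genes, 0 passed the limma test and 1 had an unadjusted p under 0.05. Macrophage markers summed to 17.5 to 35.5 in control and 17.7 to 24.6 in low protein livers. Of the 8 measured, 0 passed the limma test, 6 had an unadjusted p under 0.05, and the median difference was -0.41; without control rat 6, Adgre1 and C1qa passed (limma adjusted p = 0.0230 and 0.0317). Of hepatocyte markers, 3 of 10 fell in the limma test: Apoa1 by 0.84, Cps1 by 0.68 and Apoa2 by 0.42 on the log2 scale. Of these 10, 5 had an unadjusted p under 0.05, and the median difference was -0.17. Endothelial markers (5 measured) had 0 passing and 1 with an unadjusted p under 0.05, and of 7 blood cell markers Ptprc fell (-0.43, limma adjusted p = 0.0292). With control rat 3 left out, the adjusted p was 0.0754 for Apoa2 and 0.0720 for Ptprc, and without scaling between arrays 0.338 and 0.307. Without low protein rats 1 and 2 it was 0.0615 and 0.112. The part of these markers in the differences of the 9 genes was not tested.

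The genes beside Pnpla5 and Pnpla3 on the chromosome were not used to choose the set, so those measured in both diets were tested. Sult4a1, a sulfotransferase gene next to Pnpla5, passed the filter on dim probes only through the control diet, so its difference is described without a test. It spanned -5.18 to -2.86 in control livers (median -4.30) and -9.06 to -5.00 in low protein livers (median -8.09). It was well above background on 6 of 6 control and 1 of 6 low protein arrays, so its low levels rest near the floor of the array. The difference in measured level was -3.45 ± 0.66, and -0.93 ± 0.21 with normexp background correction, so its size is not settled. The diets overlapped through low protein rat 1, at -5.00. On the other side, Samm50, a gene of mitochondrial outer membrane assembly that lies next to Pnpla3, differed by 0.01 ± 0.09 (limma adjusted p = 0.975). The actin-linked parvins Parvb and Parvg, farther on, differed by -0.33 ± 0.17 and -0.62 ± 0.21 (limma adjusted p = 0.279 and 0.0956). Parvg passed without control rat 6 (limma adjusted p = 0.0262) and Parvb without low protein rat 2 (limma adjusted p = 0.033). Mpped1 did not pass the filter, and no probe of Efcab6 was matched.

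**Figure D3:**
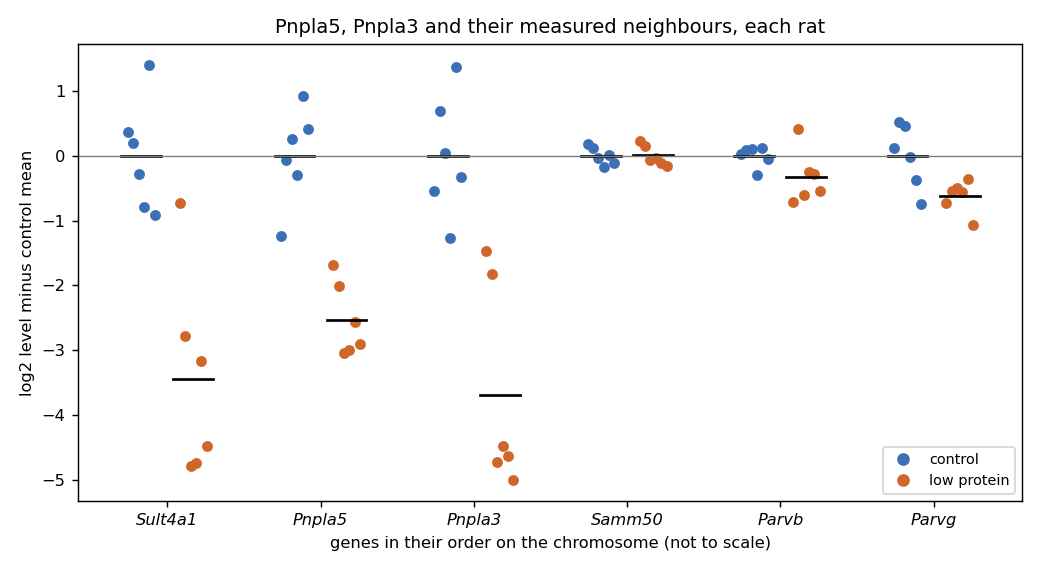
Log2 level minus the control mean (y axis) in each rat for Pnpla5, Pnpla3 and their 4 measured neighbours in chromosomal order (x axis, not to scale; lines are means of 6 rats). Pnpla5 and Pnpla3 lie lower in the low protein livers, Sult4a1 does so near the floor of the array, and the points of Samm50 lie around 0 in both diets.

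For the 2 genes with the largest differences, the genes most like them from rat to rat were sought among 11196 named genes, by the Pearson r of deviations from the diet means over 12 rats. These values were picked as the highest and are given without a test. Nearest to Pnpla3 were Slc2a4, which encodes the insulin-responsive glucose transporter (r = 0.95; 0.92 over control and 0.97 over low protein rats), and Pgd, an enzyme of the pentose phosphate pathway that yields NADPH (0.95; 0.96 and 0.95). The zinc transporter gene Slc39a6 followed (0.93; 0.87 and 0.95). Without the 2 rats farthest from the median these became 0.88, 0.93 and 0.88. Slc2a4 itself differed by 0.66 ± 0.35 between the diets (limma adjusted p = 0.296), a mean difference in the opposite direction to that of Pnpla3. Slc39a6 also differed in that direction, by 0.34 ± 0.11 (limma adjusted p = 0.103). Pgd differed in the same direction as Pnpla3, by -0.85 ± 0.24 (limma adjusted p = 0.0537).

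Nearest to Pnpla5 were Acsl5, an acyl-CoA synthetase gene (r = 0.91; 0.95 over control and 0.84 over low protein rats), and Pip4p2, a phosphoinositide phosphatase gene (0.90; 0.92 and 0.87). Without the 2 farthest rats these became 0.84 and 0.81. With the 12 genes of fatty acid synthesis, Pnpla3 had r from -0.02 to 0.87 over control rats (median 0.56, 10 of 12 above 0). Over low protein rats it had -0.17 to 0.97 (median 0.71, 11 of 12 above 0), which includes the gap between rats 1 and 2 and the others. Over all genes the median r of Pnpla3 was -0.063 and 0.14. Other genes of the set had medians as high with the same 12 genes: Plin2 0.82, Cidec 0.65 and Gpam 0.63 over control rats, and Pnpla5 0.72 over low protein rats. Each r sets genes of the same arrays beside each other, over 6 rats per diet, and is a description.

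Variation among rats of 1 diet was not used to choose the genes, and it was tested for the 36 pairs of the 9 genes in each diet. None of the 72 correlations passed after Benjamini-Hochberg adjustment (smallest adjusted p = 0.34, exact permutation test over 720 pairings, two-sided; smallest possible p 0.00139). With an unadjusted p under 0.05 there were 5 in control and 2 in low protein rats by Pearson r, and 1 and 0 by Spearman rho. The median r was 0.27 and 0.13.

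In control rats, Plin2 and Gpam had r = 0.88 (exact permutation p = 0.0125; rho = 0.94, p = 0.0167), and 0.91 without the 2 farthest rats. Cidec and Plin2 had r = 0.84 (exact permutation p = 0.0222; rho = 0.83, p = 0.0583) and 0.41 without those rats. Gpam and Dgat1 had r = -0.90 (exact permutation p = 0.00556; rho = -0.83, p = 0.0583), which turned to 0.25 without scaling between arrays. In low protein rats, Pnpla3 and Pnpla5 had r = 0.94 (exact permutation p = 0.0208; rho = 0.71, p = 0.136) and 0.04 without rats 1 and 2, so the relation rests on those rats. Pnpla3 and Gpam had r = 0.84 (exact permutation p = 0.0361; rho = 0.83, p = 0.0583) and 0.37 without them. Pnpla2 and Gpam had r = -0.76 (exact permutation p = 0.0639; rho = -0.77, p = 0.103) and -0.79 without the 2 farthest rats.

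Of 113 genes listed for neighbouring steps of lipid metabolism, 96 were measured, of which 2 were called higher (Fitm2 and Mogat3) and 11 lower in the limma fit (adjusted p under 0.05), with a median difference of -0.08 against -0.03 over all genes. The lists were drawn up with results of these data known, and 13.5% of their measured genes passed against 6.53% of all genes. These counts include Mogat3, which passed the filter on dim probes only through the low protein diet.

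Among the other genes of glycerolipid assembly, which share the path with Gpam, Dgat1 and Dgat2, 1 of 18 was called higher and 1 lower (median -0.03). Acsl3, which activates fatty acids at forming droplets, fell by 0.93 on the log2 scale (SE 0.15, limma adjusted p = 0.00396). The gene called higher was Mogat3, a monoacylglycerol acyltransferase gene that passed the filter only through the low protein diet (well above background on 2 control and 5 low protein arrays). Its difference was 1.80 ± 0.43, and with normexp background correction it was 0.25 (limma adjusted p = 0.0929), so nothing is read from its call. Among other droplet proteins, the company of Plin2 and Cidec, 1 of 14 rose and 0 fell (median 0.08). It was Fitm2 (0.49 ± 0.13, limma adjusted p = 0.0357), an endoplasmic reticulum protein needed for droplet budding. Among other lipases and cofactors, 1 of 11 fell (median -0.11). It was Lipc, hepatic lipase (-0.43 ± 0.11, limma adjusted p = 0.0322). Of the 10 genes of very low density lipoprotein assembly, 0 passed the limma test and 1 had an unadjusted p under 0.05, against 4722 of all 21874 genes. That gene was Mttp, the transfer protein that loads lipid onto apolipoprotein B (0.28 ± 0.08, limma adjusted p = 0.0553). Its diets did not overlap, but the highest control level (1.59095) and the lowest low protein level (1.59155) nearly met. The limma adjusted p of Mttp was 0.0409 with normexp background correction, 0.0357 without scaling between arrays and 0.0302 without low protein rat 4. It was 0.163 without the filter on dim probes, 0.111 without low protein rat 2 and 0.193 without low protein rats 1 and 2. Apoc3, the next by p, differed by -0.18 (limma adjusted p = 0.327).

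Genes listed under fatty acid synthesis had 5 of 12 lower and 0 higher (median -0.39). Acacb, the mitochondrial acetyl-CoA carboxylase, fell by 1.33 on the log2 scale (SE 0.13, limma adjusted p = 0.000113), and by 0.67 with normexp background correction. The elongase gene Elovl5 fell by 0.85, the desaturase genes Fads1 and Fads2 by 0.87 and 0.92, and Slc25a1 by 0.35. Fasn, Acly and Scd differed by -0.67, -0.40 and -0.38 and did not pass (limma adjusted p = 0.352, 0.521 and 0.107). Me1, Acaca, Elovl6 and Pklr had differences above 0 (0.92, 0.50, 0.39 and 0.18) and did not pass either. The list therefore did not move as a whole. Among regulators of lipid synthesis, 2 of 19 fell and 0 rose (median -0.15). Insig1, the sterol-sensing retention protein of SREBP, fell by 1.84 (SE 0.49, limma adjusted p = 0.0437), and Scap, the SREBP escort protein, by 0.34 (SE 0.07, limma adjusted p = 0.0135). Srebf1, the gene that encodes SREBP-1c, differed by -0.86 (SE 0.25) and did not pass (limma adjusted p = 0.0591). Of genes of fatty acid uptake and binding, 2 of 12 fell (median -0.20). They were Dbi, the acyl-CoA binding protein (fell by 0.61, SE 0.08, limma adjusted p = 0.00107), and Fabp2 (fell by 1.11, SE 0.30, limma adjusted p = 0.0477). With 1 rat left out, the adjusted p reached 0.0753 for Fitm2 (without low protein rat 2), 0.0776 for Lipc (control rat 3), 0.0891 for Insig1 (control rat 2) and 0.103 for Fabp2 (control rat 3). Without scaling between arrays, the limma adjusted p was 0.428 for Scap, 0.299 for Lipc, 0.129 for Fabp2 and 0.0730 for Fads2, and with the probes of a gene averaged it was 0.1202 for Fitm2.

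**Figure D4:**
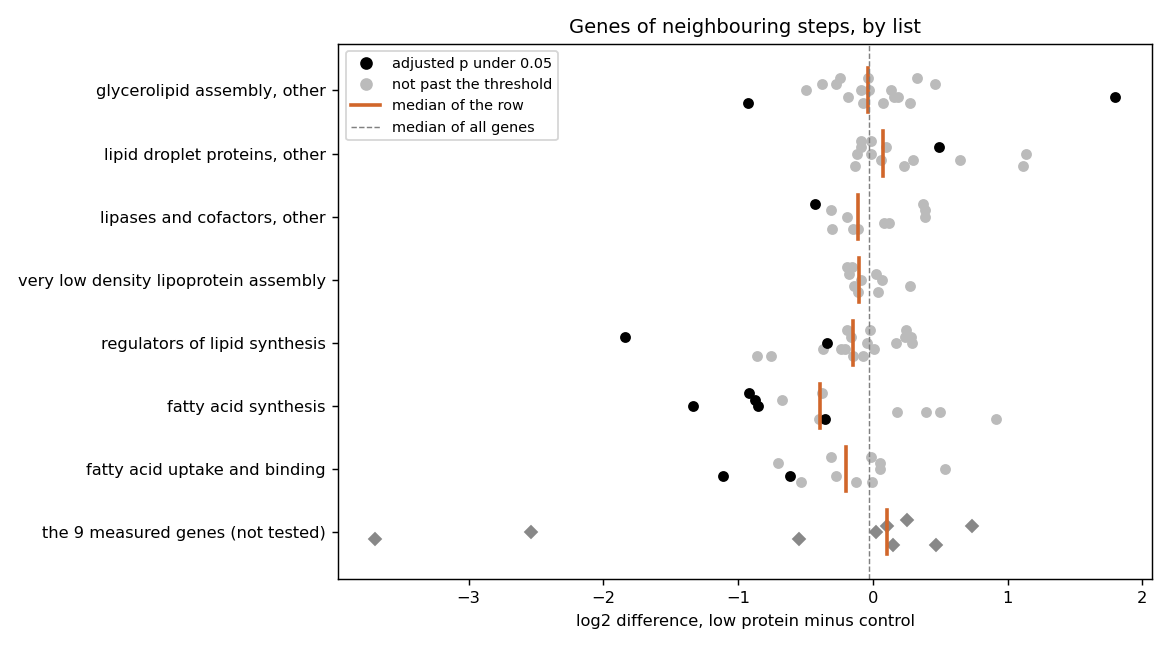
Log2 difference, low protein minus control (x axis), of each measured gene of the 7 lists and of the 9 measured genes (y axis; diamonds, not tested); black points passed an adjusted p under 0.05, orange bars are row medians, and the dashed line is the median of all genes, -0.03. The 2 diamonds farthest left are Pnpla3 and Pnpla5, and the fatty acid synthesis row holds the most black points, 5 of 12. The black point of Mogat3 passed the filter on dim probes only through the low protein diet.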

How the data were processed

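Livers of 12 rats were measured on 1 single-colour array each. The authors extracted spot values with Agilent Feature Extraction 12.0.3.1, per the file headers; the deposited files give linear intensity (processed, median, local background). The deposited series table equalled the median intensity at 100% of spots. The headers name the rn4 build; promoter windows are GRCr8, and no other coordinates are given. Probes were named by unversioned RefSeq accession against GRCr8 (46.5% of 45598 probes, 16667 genes).

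Levels were log2 processed signal minus the array's 75th percentile over 58717 spots that were not controls. Outlier spots (453 to 739 per array) were set missing, 0 were saturated, and replicate spots were averaged. A probe was kept if 5 or more of the 6 arrays of either diet marked it as above background; 1 probe per gene (highest mean) was tested with limma 3.58.1 in R 4.3.3 (two-sided, Benjamini-Hochberg over 21874 genes). Folds of probes near background depend on the signal floor, and the number of arrays limits precision. Each limma p-value sets the diet difference against the variation among arrays of the same diet. With 1 array per rat, variation of the animal and of the measurement are not separated. Data were simulated on 21874 genes, 200 of them changed, with noise independent between genes. The test recovered 53.7% of changes of 1.5-fold, 92.5% at 2-fold and 100% at 4-fold, with 6.82% of calls false. In the measured data 1429 genes passed, so these rates need not hold there.

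Members and lists were chosen with earlier results of these data known. Named genes were all members and chromosomal neighbours, from each list up to 4 passing genes (if there were none, the 2 smallest by p), the 3 genes most like Pnpla3 and Pnpla5 (1 is not reported here), and the 3 pairs per diet with the smallest p. Marker genes, Srebf1 and the remaining genes of fatty acid synthesis were named after their values were seen. Alternatives covered background correction, scaling, filters, slides, the rat number as a block, and leaving out each rat. Rats of equal number were not paired: their deviations correlated at 0.03 to 0.26, and 2 of 6 control rats correlated best with their own number.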

Additional observations from a re-analysis of the deposited data

Results flagged for a closer look

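Among 86 groups of 6 rats, examined for most of the genes named, 8 held a rat far from the other 5, and chance gives about 1 in 20 groups. For Dgat1, low protein rat 6 stood above the others at a log2 level of 1.996 (others 1.78 to 1.82), while on its other probe low protein rat 2 stood above at 0.86 (others 0.67 to 0.74), so the probes did not share the rat. For Fads2, low protein rat 3 was low at -0.21, and for Dbi, low protein rat 1 was high at 5.91. Among marker genes, low protein rat 6 was high for Cfd at 1.32 and low protein rat 4 low for Cdh5 at -4.93. Control rat 6 was low for Pdgfrb at -2.40 and for Ptprc at -2.01.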

How the results depend on the processing

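The 3 genes without overlap in the analysis as reported (Pnpla3, Pnpla5 and Cidec) kept their direction in all settings run. Over the settings other than leaving out rats, Pnpla3 differed by -4.54 to -2.80, Pnpla5 by -2.58 to -2.38 and Cidec by 0.61 to 1.00, on the log2 scale. Gpam ranged from -1.14 to -0.25, and Plin2, Pnpla2, Dgat1 and Dgat2 changed sign in at least 1 setting. On slide 2 alone, 6 of the 9 genes did not overlap. With 2 rats per diet, diets separate far more easily than with 6. The share over all genes was not computed for that slide, so nothing is read from this count. Over all rats, the number of genes without overlap was 2 with normexp background correction and with the deposited values, scaled or not, since Cidec overlapped. Against 1429 passing genes over the array, the count was 891 without scaling, 618 without the filter on dim probes, 437 at an adjusted p under 0.01, 164 on slide 1 alone, 12 on slide 2 alone and 820 without low protein rats 1 and 2 (chosen after seeing the data). Leaving out 1 rat gave 856 (without control rat 3) to 1307. Without scaling, the median of all genes shifted to 0.11 and 76.2% of passing genes were higher, against 53.3%; it was 81.1% with the deposited values not scaled. Against 13 passing list genes, the count was 6 without the filter on dim probes, 5 at an adjusted p under 0.01, 4 on slide 1 alone, 0 on slide 2 alone, and 8 (without control rat 2, control rat 3 or low protein rat 5) to 12 with 1 rat left out. Mogat3 passed the filter only through the low protein diet and is included in the 13. Sult4a1 passed the filter only through the control diet, so its call is not counted. Of the tested neighbours (Samm50, Parvb and Parvg), 0 passed in the analysis as reported. With 1 rat left out, Parvg passed without control rat 6 and Parvb without low protein rat 2. Samm50, at 0.01, was -0.064 with quantile normalization, -0.10 on slide 2 alone, -0.087 without low protein rats 1 and 2 and -0.038 to 0.045 with 1 rat left out. Pecam1, an endothelial marker, was 0.019 without scaling and 0.0069 with the deposited values not scaled. The r of Gpam and Dgat1 in control rats turned to 0.25 without scaling and 0.28 with the deposited values not scaled. The causes of these shifts were not tested. With the rat number as a replicate block, 1411 genes and 15 list genes passed. Pnpla3, Sult4a1, Mogat3 and Acacb have differences whose size depends on the background correction (Pnpla3 -3.69 as reported and -2.80 with normexp). The 2 rats per diet of slide 2 limit what that slide can show.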
